A study of Mus musculus with 4 samples.

Results

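Head-to-head gene pairs whose 5′ ends overlap were described by the counts of both genes in mouse T-helper 2 (Th2) cells. A pair was a plus-strand gene and a minus-strand gene that shared at least 1 exonic base, with the minus gene starting to the left of the plus gene and reaching past its first base. The plus gene in turn ended to the right of the minus gene. Pairs in which either gene had 90% or more of its exonic bases in the other were left out, as were the sex chromosomes and the mitochondrial genome. The rule used only coordinates and strand, and it gave 1457 of the 4498 autosomal pairs of opposite-strand genes with shared exonic bases. The pairs held 2866 of the 50600 genes, of which 2826 were in 1 pair and 40 in several, with up to 8 pairs for 1 gene. The other opposite-strand pairs were 1351 tail-to-tail pairs, which overlap at their 3′ ends, 539 pairs over the 90% limit and 1151 of other layouts.

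RNA of primary Th2 cells of the mouse strain C57BL/6NJ was sequenced in 4 libraries, which form a single group with no treatment, genotype or control. Th2 cells are CD4 T cells that make interleukins of type 2 immunity, and the labels refer to a differentiation protocol for CD4 T cells without giving its steps. The file headers carry 72 h, whose meaning is not given. Each library has its own biosample under the same donor, so that the spread between libraries may be technical in part, and age and sex were not given. Replicates 1, 3 and 4 had 2388255, 1929880 and 1713199 counts on genes, whereas replicate 2 had 5016. The results rest on replicates 1, 3 and 4, and values of replicate 2 are given beside them. The T cell markers Cd3e, Cd3g, Cd4, Trac, Cd2 and Cd5 had 62 to 239 counts each over those 3 libraries, while Ms4a1, Ncr1, Klrb1c and Itgam had 0, Lyz2 and Cd8a had 1 and Cd8b1 had 4. Of these genes only Cd3e has exons opposite another gene.

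Genes in head-to-head orientation are transcribed away from each other, and where their starts lie close they can share a promoter region from which RNA polymerase sets off on both strands. Many such partners of protein-coding genes are long non-coding RNAs. Where the first exons overlap, the same bases can be read into the sense RNA of each gene, and only strand-specific counting can assign a fragment to either gene. In these files a fragment was counted for a gene only if read 1 lay on the gene's annotated strand. Whether read 1 of these libraries has the direction of the RNA is not stated in the sources used here. Autosomal protein-coding genes with exonic bases opposite another gene were 22.9% of such genes and held 86.3% of their counts over replicates 1, 3 and 4, with a median of 31 counts against 1 for those without. Actb, the cytoskeletal actin gene abundant in most cells, had 488, 130 and 388 counts, and B2m, the light chain of MHC class I, had 101, 18 and 95, neither with an opposite-strand exon. Among other abundant genes without one, Eef1a1, a translation elongation factor, had 2057, 622 and 1578 counts, Tmsb4x 641, 196 and 385, and Ptprc, the CD45 gene, 359, 101 and 277. Gapdh, which has opposite-strand exons, had 382, 107 and 236. These genes were chosen after values were seen. If read 1 has the direction opposite to the RNA, a fragment counted for one gene of a pair comes from RNA of the other strand. Every count here, those of the markers included, is therefore a count on the annotated strand of a gene. The level of its RNA cannot be read from it, and "higher" and "lower" refer to these counts.

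The pairs shared few bases relative to their length. The median number of shared exonic bases was 195 (quartiles 102 and 361, range 1 to 2613), and in 1173 pairs (80.5%) they formed a single block. The shared bases made up a median of 12.0% of the exonic length of the gene with the larger share and 4.24% of that of its partner. The distance from the start of the plus gene to the end of the minus gene had a median of 576 bases, so that introns or spacing between exons filled part of it in most pairs. A non-coding gene faced a protein-coding gene in 775 pairs (53.2%), and 448 pairs (30.7%) joined protein-coding genes. Antisense RNAs were the most frequent non-coding class with 518 genes, followed by 174 lincRNAs and 148 processed transcripts. In 833 pairs (57.2%) neither gene shared exonic bases with any further gene on either strand, and these are called clean pairs.

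The 90% limit removed 13 of 1470 pairs. Just inside it stood Gm15723 and Trhde with 89.7% and no counts, and Golph3 and 1810049J17Rik with 87.4% and 104 against 4611 counts. Just outside stood Pcdha6 and Gm37753 with 90.9% and no counts, and ENSMUSG00000091095 and Chd3 with 94.1% and 910 against 103 counts.

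The shared stretch itself can be very short. Of the 15 single-block pairs with 20 to 30 shared bases and at least 30 counts, 14 had it read from GENCODE vM21 transcripts (build GRCm38, the assembly of mm10). Of the 6 of them that are clean, 5 are shown on the plus strand, with CG dinucleotides in capitals, since the most abundant pair of all is among them.
Ngly1 and Oxsm, chr14:16249477-16249497: ctaCGcCGacaacatcctgag
Rrp9 and Parp3, chr9:106475963-106475982: gttttggagccatggttctc
Fam57b and Aldoa, chr7:126797668-126797692: tgcccttgccCGgagccacaatgCG
Gm12536 and Ptpn3, chr4:57300281-57300310: ctgcagcatcCGggggCGCGgggCGcccag
Gm20036 and Trip11, chr12:101913240-101913267: gccagatcCGtgacttcCGCGtaacctg
Fam57b and Aldoa share the 25 bases shown, and had 37309 and 593 counts over replicates 1, 3 and 4. Rrp9 had 660 counts against 51 of Parp3. Oxsm, the minus gene, had 557 counts against 27 of Ngly1. Gm12536 had 94 counts against 53 of Ptpn3, and Gm20036 had 6 against 80 of Trip11. The gene with more counts was thus on the plus strand in 3 of these 5 pairs and on the minus strand in 2.

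Because the partner is transcribed outward across the start of a gene, its exons can also cover the promoter. Of 2914 gene ends, 1961 (67.3%) had an exon of the partner within the 250 bases before the start, and in 1010 (34.7%) the partner's exons covered all of them. A median of 53.6% of these bases was exonic in the partner. RefSeq promoter windows (GRCm38.p6, 250 bases before to 50 after the start) were found by symbol for 1800 of the 2866 genes (62.8%), too few to compare base composition or motifs between sets. For 5 genes among the pairs named below, the stretch of the window outside annotated UTRs is shown 5′ to 3′ on the strand of the gene. Capitals mark bases that lie in an exon of the partner.
Ftl1, chr7:45459885-45460136, minus strand: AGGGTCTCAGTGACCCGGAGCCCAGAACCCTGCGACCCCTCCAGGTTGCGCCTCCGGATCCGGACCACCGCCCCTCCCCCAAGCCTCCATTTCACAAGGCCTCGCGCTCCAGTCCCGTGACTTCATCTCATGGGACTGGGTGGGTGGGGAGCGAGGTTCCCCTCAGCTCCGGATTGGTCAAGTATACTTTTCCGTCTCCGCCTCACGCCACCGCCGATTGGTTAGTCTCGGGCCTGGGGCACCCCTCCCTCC
Btf3, chr13:98317007-98317256, minus strand: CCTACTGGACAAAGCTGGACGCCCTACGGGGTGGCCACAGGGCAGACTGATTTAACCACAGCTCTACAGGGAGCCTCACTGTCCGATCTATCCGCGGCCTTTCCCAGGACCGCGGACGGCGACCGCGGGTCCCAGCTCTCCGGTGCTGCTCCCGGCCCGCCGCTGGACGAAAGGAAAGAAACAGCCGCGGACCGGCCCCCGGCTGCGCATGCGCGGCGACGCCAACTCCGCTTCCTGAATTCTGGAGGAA
Slc25a10, chr11:120491587-120491839, plus strand: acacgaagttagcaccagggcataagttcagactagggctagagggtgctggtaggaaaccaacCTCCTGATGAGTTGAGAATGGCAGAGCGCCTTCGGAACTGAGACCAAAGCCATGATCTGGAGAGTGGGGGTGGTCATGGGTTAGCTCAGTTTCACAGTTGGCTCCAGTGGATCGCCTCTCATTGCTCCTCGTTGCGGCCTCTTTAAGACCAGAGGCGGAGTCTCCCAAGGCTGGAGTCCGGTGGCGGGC
Mt2, chr8:94172368-94172663, plus strand: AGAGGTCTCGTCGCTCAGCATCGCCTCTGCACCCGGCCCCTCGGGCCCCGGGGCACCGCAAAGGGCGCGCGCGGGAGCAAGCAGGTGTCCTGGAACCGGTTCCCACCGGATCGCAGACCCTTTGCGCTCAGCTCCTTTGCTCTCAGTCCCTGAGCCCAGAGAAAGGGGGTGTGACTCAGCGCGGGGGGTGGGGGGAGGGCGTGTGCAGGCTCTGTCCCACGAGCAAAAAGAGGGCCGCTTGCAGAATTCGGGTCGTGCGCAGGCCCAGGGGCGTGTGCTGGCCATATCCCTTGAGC
Pim1, chr17:29490535-29490752, plus strand: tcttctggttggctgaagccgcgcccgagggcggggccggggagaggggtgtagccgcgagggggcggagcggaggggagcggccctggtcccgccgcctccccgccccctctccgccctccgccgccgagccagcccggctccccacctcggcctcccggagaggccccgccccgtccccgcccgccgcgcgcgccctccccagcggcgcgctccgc
The upstream bases of Ftl1, Btf3 and Mt2 that are shown lay wholly in exons of their partners Gm10252, Gm9828 and Gm45774. For Slc25a10 74.7% of them did, in Gm11788. None of the 218 bases shown for Pim1 lay in an exon of Gm26885, whose shared stretch with Pim1 falls in 4 blocks inside the gene.

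Counts were only weakly related to the length of the overlap. Across the 1457 pairs, Spearman's rho between shared exonic bases and the counts of both genes was 0.119 for the summed counts and 0.117, 0.126 and 0.118 in replicates 1, 3 and 4 (0.0975 in replicate 2). The points of a correlation share libraries and are pairs, not replicates, so it is given as a description. The relation had no steady slope. Median summed counts were 61 in pairs with under 50 shared bases, 65.5 from 50 to under 100, 198.5 from 100 to under 200 and 265 from 200 to under 500. Beyond that they were lower again, at 232.5 from 500 to under 1000 and 119 in the 51 pairs with 1000 or more. Clean pairs showed the same shape at lower values, from 25 and 26 through 87.5 and 197 to 57 and 12. The coefficient was 0.253 in the 967 pairs with 30 or more counts, 0.269 in pairs of protein-coding genes and 0.0621 in pairs of a non-coding and a protein-coding gene. With the distance between starts in place of shared exonic bases it was -0.0816.

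**Figure D1:**
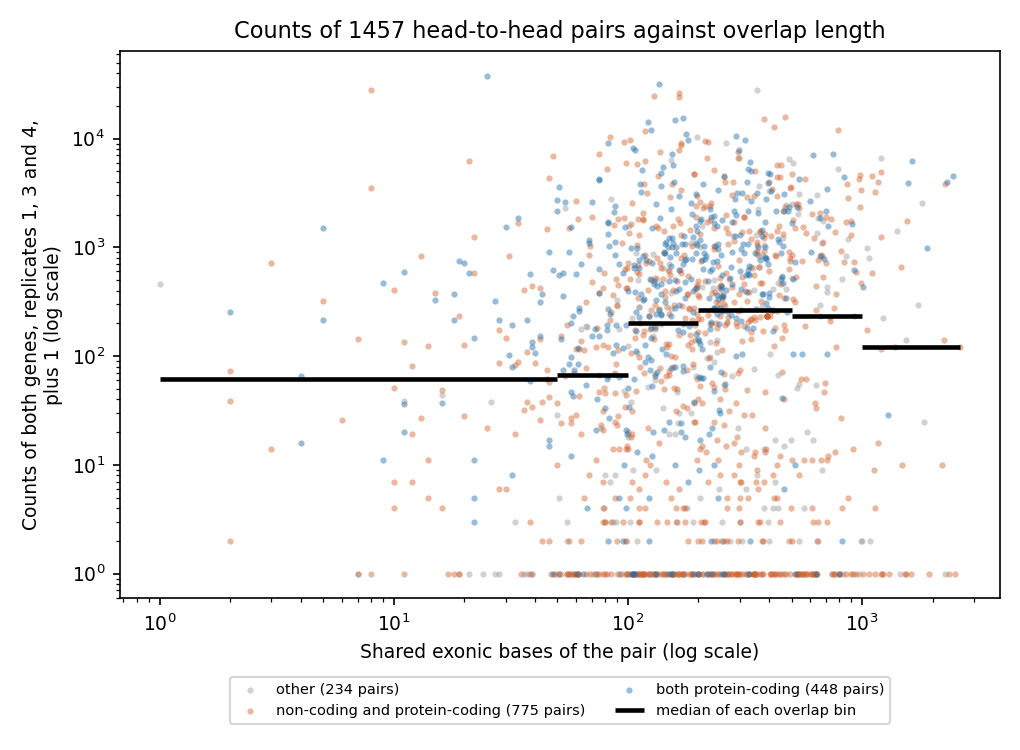
Counts of both genes plus 1, summed over replicates 1, 3 and 4 (log scale), against shared exonic bases (log scale), with 1 point per head-to-head pair coloured by biotype and black bars at the bin medians. The bars rise from 61 counts below 50 shared bases to 265 from 200 to under 500 and lie at 119 from 1000 on, with a wide spread in every bin.

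Tail-to-tail pairs differed from this pattern. Their rho was 0.378 ± 0.00803 (mean of per-library values, SD, n = 3) against 0.120 ± 0.00527 in head-to-head pairs. The difference of 0.258 ± 0.00278 had the same sign in 3 of 3 libraries (exact two-sided sign-flip permutation p = 0.25, the smallest that 3 libraries allow). Median summed counts of tail-to-tail pairs rose from 102 below 50 shared bases to 2210.5 at 1000 or more, with no decline. Head-to-head neighbours whose starts lay up to 1000 bases apart with no shared base had fewer counts than the overlapping pairs. Their medians were 43 counts at gaps under 100 bases, 37 from 100, 25 from 200 and 9 from 500 bases on. On the depth-corrected scale, the median of pairs with 200 to under 500 shared bases was 44.8, 43.5 and 42.0 CPM (counts scaled to equal library totals) in replicates 1, 3 and 4, while that of neighbours at gaps under 100 was 7.96, 4.15 and 7.59. All 3 libraries of the class with 200 to under 500 shared bases, which had the highest median, lay above all 3 of the neighbours. Pairs with under 50 shared bases were not separated in this way. Their median lay above that of the neighbours within each library. In replicate 3 it was 7.25 CPM, below the 7.96 of the neighbours in replicate 1.

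**Figure D2:**
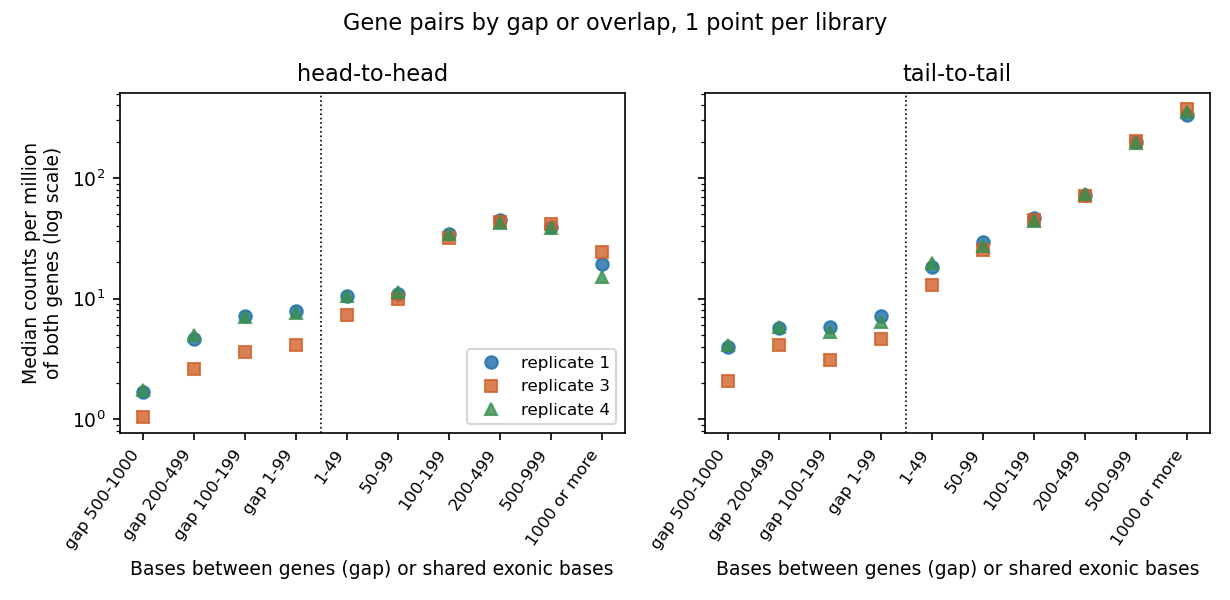
Median CPM of both genes (log scale) for pairs binned by the gap between their ends, left of each dotted line, or by shared exonic bases, right of it, with 1 point per library for head-to-head pairs (left panel) and tail-to-tail pairs (right panel). Head-to-head medians level off near 40 CPM at 200 or more shared bases and fall to between 15.2 and 24.4 at 1000 or more, whereas tail-to-tail medians keep rising.

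In most pairs the counts lay largely on a single gene. Of the 967 pairs with 30 or more counts, 905 (93.6%) had the same gene higher in all 3 libraries, the plus gene in 444 and the minus gene in 461. The lower gene took a median of 5.65%, 3.56% and 5.54% of the pair's counts in replicates 1, 3 and 4. It took 10% or less in 617, 666 and 610 pairs, and 30% or more in 126, 115 and 125. In 73 pairs 1 gene had no count at all in the 3 libraries. The values of tail-to-tail pairs were close to these, with 988 of 1043 (94.7%) having the same gene higher in all libraries and a lower-gene median of 7.25%, 5.58% and 7.21%. Across the 967 pairs the log2 counts of the plus and the minus gene had a Spearman's rho of -0.278, a description over pairs that were filtered on their sum. Of all 1457 pairs, 228 (15.6%) had no count and 262 had 1 to 29.

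**Figure D3:**
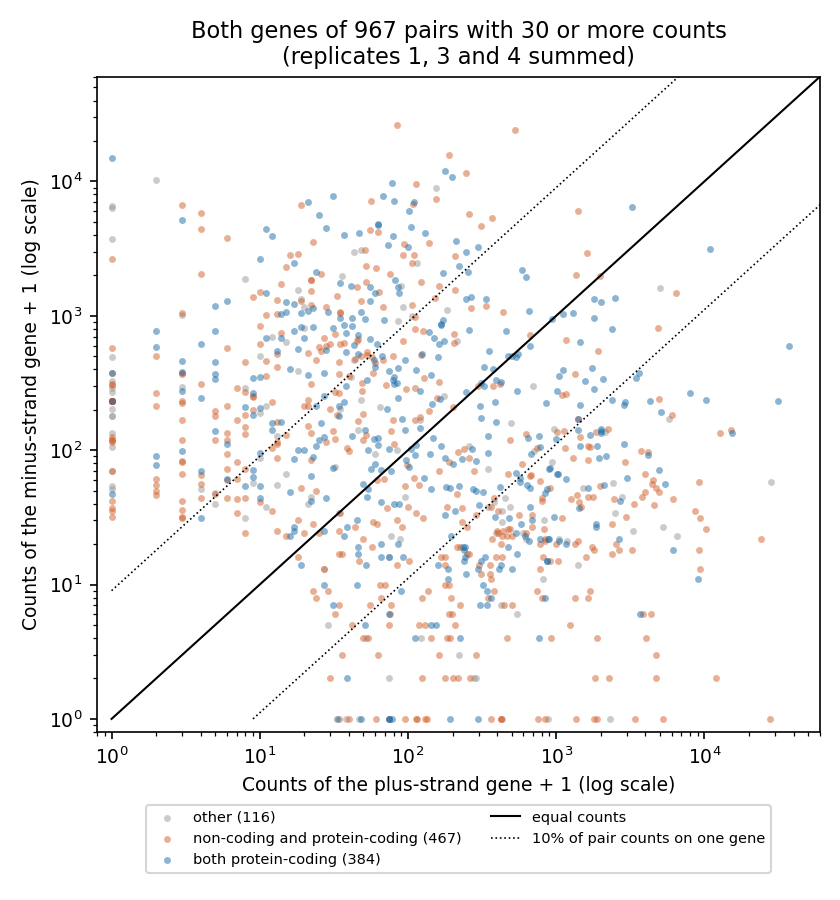
Counts plus 1 of the minus-strand gene against those of the plus-strand gene, summed over replicates 1, 3 and 4 (log scales), for 967 pairs with 30 or more counts, with the solid line at equal counts and dotted lines where the lower gene holds 10% of the pair. Most points lie outside the dotted lines on either side, 444 pairs having the plus gene and 461 the minus gene higher in every library.

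The 10 pairs with the most counts held 16.8% of the counts of all pairs, and each had a single dominant gene. Fam57b, a gene for a membrane protein, lies on chromosome 7 opposite Aldoa, which encodes the glycolytic enzyme aldolase A. Fam57b had 14776, 12310 and 10223 counts in replicates 1, 3 and 4 (9 in replicate 2), and Aldoa had 315, 98 and 180 (1 in replicate 2). The groups of values did not overlap, and Aldoa was lower per exonic base by a log2 ratio of -6.03 ± 0.39 (SE, edgeR adjusted p = 2.27e-06). Pde6h, the gene of a phosphodiesterase subunit of cone photoreceptors, had 11527, 10525 and 9519 counts. Its partner Arhgdib, the gene of a GTPase regulator abundant in blood cells, had 112, 46 and 74, a log2 ratio of -4.95 ± 0.33 (edgeR adjusted p = 2.6e-06). Every library again showed the same gene on top, here with 136 shared bases in 2 blocks. Gm10252, a transcript of the TEC class (to be experimentally checked), had 11174, 9321 and 7562 counts. Ftl1, which encodes ferritin light chain for iron storage and whose upstream bases are printed above, had 29, 10 and 18. The log2 ratio of Gm10252 to Ftl1 was 9.67 ± 0.40 (edgeR adjusted p = 4.91e-07). This pair is not clean, since Ftl1 also overlaps Gm22133 on its own strand.

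Wdr38 had 10477, 9601 and 7795 counts, while its antisense partner Gm13496, with which it shares 8 bases, had none in any library. Against the floor of 3 counts over the 3 libraries, Wdr38 was at least 9291-fold higher in counts. Wdr38 is not clean, since it also shares exonic bases with Rpl35, a ribosomal protein gene with 203 counts over the 3 libraries. Gm20496 had 9577, 9430 and 7388 counts against 33, 16 and 34 of Tap2, a subunit of the peptide transporter for antigen presentation. Gm20496 also shares exonic bases with Psmb8 on the other strand, and the files do not place its counts along the gene. Pcbp2, which encodes an RNA-binding protein, had 229, 140 and 155 counts against 9261, 7815 and 6928 of the lincRNA Gm26518. Pcbp2 also shares 1571 bases with Map3k12 on the other strand, which had 23570 counts over the 3 libraries. Cdkl2 had 4, 6 and 11 counts against 9517, 8198 and 6410 of Gm26582, which also overlaps G3bp2. Jmjd6 had 66, 40 and 28 counts against 6551, 4342 and 4462 of Mettl23, which also overlaps the splicing factor gene Srsf2.

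The remaining pairs of these 10 are clean. Pim1, a kinase gene induced by cytokine signalling, had 98, 29 and 61 counts (1 in replicate 2), and its antisense partner Gm26885 had 6411, 5065 and 4120 (8 in replicate 2). They share 468 bases on chromosome 17, and Gm26885 was higher by a log2 ratio of 7.11 ± 0.39 (edgeR adjusted p = 1.09e-06). Btf3, which encodes a subunit of a ribosome-associated complex, had 75, 14 and 51 counts against 6153, 5158 and 3815 of the bidirectional promoter RNA Gm9828. The lower gene took 0.917% of this pair's counts and 1.19% of those of Pim1 and Gm26885. Of the 9 lower genes with counts in these 10 pairs, Aldoa, Arhgdib, Ftl1, Tap2, Pcbp2, Pim1 and Btf3 had their lowest CPM of the 3 libraries in replicate 3, Jmjd6 in replicate 4 and Cdkl2 in replicate 1. Counts on the T cell markers above were also lowest in replicate 3, and the part of that library in these values was not tested.

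**Figure D4:**
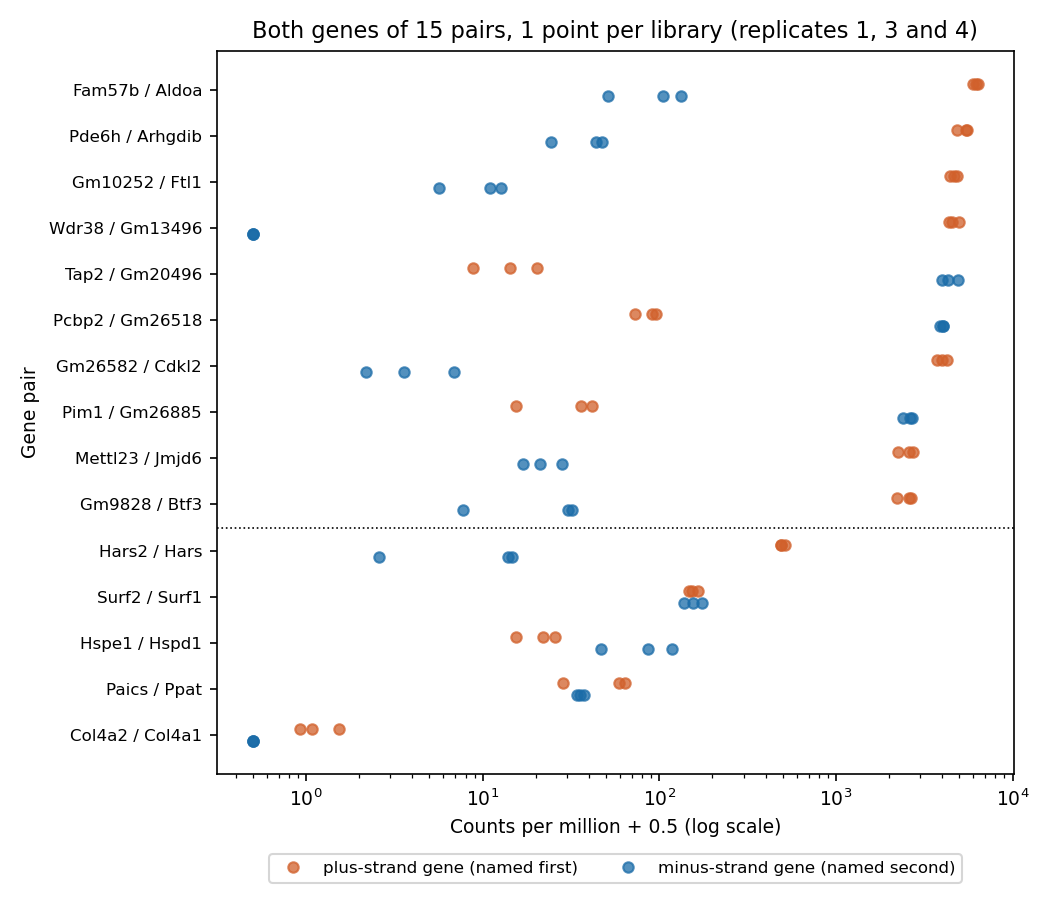
CPM plus 0.5 (log scale) of the plus-strand gene (orange, named first) and the minus-strand gene (blue) for 15 pairs, with 1 point per library for replicates 1, 3 and 4. Above the dotted line are the 10 pairs with the most counts, whose genes lie far apart, and below it 5 textbook pairs, among which Surf2 and Surf1 overlap, as do Paics and Ppat.

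Genes were compared within each pair per exonic base with edgeR, first by which gene had the larger share of its exons in the overlap. That gene was higher in 598 of 967 pairs (61.8%) and lower in 283 (29.3%), with 86 not called at an adjusted p of 0.05. Over all opposite-strand pairs tested the shares called were 65.7% higher and 26.1% lower, so the head-to-head pairs lay near the background. The median log2 ratio was 3.01, against 3.67 over all pairs. Among the clean pairs 315 of 482 were higher and 115 lower, and among pairs of protein-coding genes 205 of 384 were higher and 140 lower.

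The second comparison set non-coding genes against their protein-coding partners. In the 467 such pairs with 30 or more counts, the non-coding gene had the higher count in 366, 369 and 367 pairs in replicates 1, 3 and 4. It held 85.2%, 85.7% and 84.5% of all counts of these pairs. Per exonic base, edgeR called the non-coding gene higher in 381 pairs (81.6%) and lower in 48 (10.3%), while over all opposite-strand pairs it was higher in 86.4% and lower in 7.75%. In counts, with no correction for exonic length, 348 were called higher and 83 lower. The median log2 ratio was 5.39 in head-to-head pairs and 6.35 over all pairs. The non-coding gene was higher in 298 and lower in 17 of 326 tail-to-tail pairs. Within head-to-head pairs the share called higher was 70.7% below 100 shared bases, 81.2% from 100 to under 200, 85.5% from 200 to under 500 and 88.6% from 500 on. It was alike across biotypes, with 239 of 290 antisense RNAs, 40 of 48 lincRNAs, 79 of 99 processed transcripts and 23 of 29 bidirectional promoter RNAs called higher. A difference between these bins or biotypes was not tested.

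**Figure D5:**
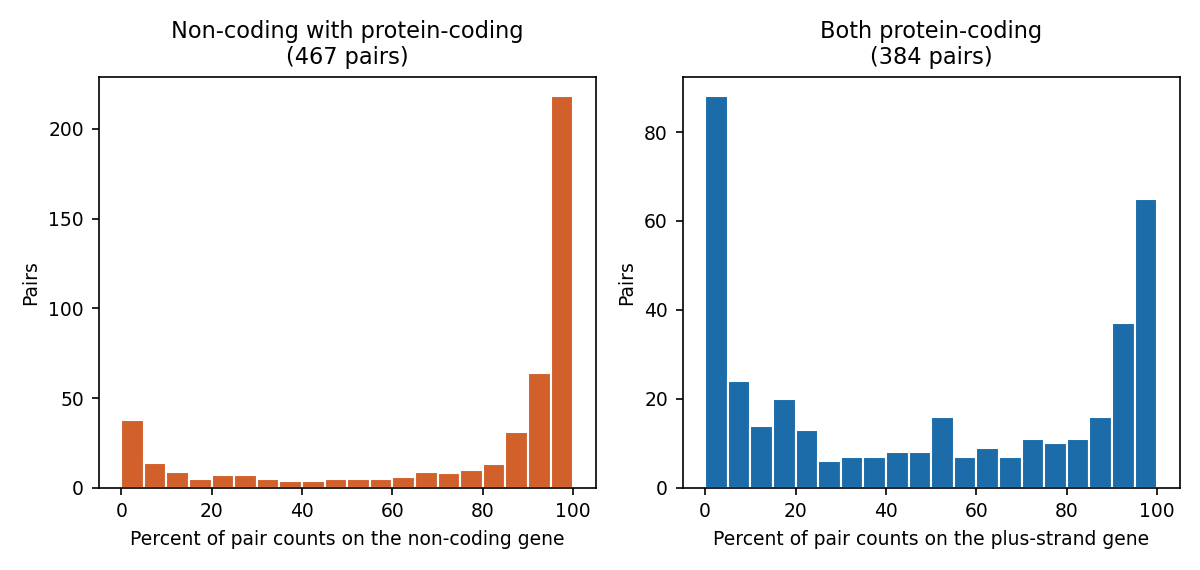
Number of pairs by the percent of the pair's counts, summed over replicates 1, 3 and 4, on the non-coding gene (left, 467 pairs) and on the plus-strand gene of pairs of protein-coding genes (right, 384 pairs). On the left 218 pairs lie at 95% or more and 38 under 5%, while on the right both ends are filled, with 65 pairs at 95% or more and 88 under 5%.

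Pairs of protein-coding genes were also one-sided, without a class that led. The same gene was lower in all 3 libraries in 349 of 384 such pairs (90.9%), and the lower gene took a median of 8.60%, 5.64% and 8.39% of the counts in replicates 1, 3 and 4. In pairs of a non-coding and a protein-coding gene the lower gene took 4.29%, 2.44% and 4.71%, and the protein-coding gene was lower in all 3 libraries in 356 of 467 (76.2%).

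Among the clean pairs, the ratios with the largest size ran in both directions of the overlap rule. The lincRNA Gm44238 had 393, 351 and 262 counts against 0, 1 and 1 of Lockd, a non-coding RNA gene next to Cdkn1b. Gm11788 had 176, 97 and 102 counts against 2, 0 and 0 of Slc25a10, the mitochondrial dicarboxylate carrier whose upstream bases are printed above. Gm30934 had 327, 244 and 226 counts against 2, 2 and 3 of Atp5l, a subunit of ATP synthase, a log2 ratio of 9.67 ± 0.36 (edgeR adjusted p = 4.91e-07). Gm42670 had 792, 600 and 466 against 8, 3 and 10 of Tmem33. In each of these 4 pairs the non-coding gene on top had the larger share of its exons in the overlap, from 16.3% to 54.0%. At the other end stood genes with the larger share and few counts. Mt2, the metal-binding metallothionein, had 1 count in each of replicates 1, 3 and 4 against 1480, 1973 and 995 of Gm45774, a log2 ratio of -8.28 ± 0.37 (edgeR adjusted p = 5.32e-07). Its shared bases were 73.5% of its exons. Zfp593 had 10, 1 and 6 counts against 2485, 2005 and 1666 of E130218I03Rik, with shares of 77.9% and 76.6%.

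The ratios of largest size over all pairs, in either comparison, came from 16 pairs, of which 0 are clean and 11 had no count on 1 gene. Gm47566 had 4136, 3396 and 2780 counts against 0, 0 and 1 of Gm47567, and also overlaps Gpr65. The lincRNA Gm16933 had 4494, 4114 and 3421 counts against 0, 1 and 0 of the protease gene Htra4, and also overlaps Plekha2. Plppr3 had 6279, 4439 and 4146 counts and Prtn3, proteinase 3 of neutrophils, had none, at least 4955-fold fewer. Plppr3 also overlaps Ptbp1, which encodes a splicing repressor. 1700084C06Rik had 1964, 1512 and 1232 counts and is in pairs with Raver1, which had 1, 0 and 0, and with Gm38431, which had 2, 0 and 0. Raver1 and Gm38431 overlap on the same strand and share the same 192 bases with 1700084C06Rik, so that their counts are uncertain. 1700084C06Rik also shares 554 bases with Tyk2, which had 24 counts over the 3 libraries. Far2 and its antisense RNA Far2os2 ran the other way from most mixed pairs, with 2060, 1745 and 1418 counts on Far2 and none on Far2os2.

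Some clean pairs had no count on 1 gene, in which case only a bound can be given. Riok1, a kinase gene of ribosome maturation, had 62, 78 and 51 counts and Cage1 none, at least 63.7-fold fewer. Slc18a2, the vesicular monoamine transporter, had 169, 138 and 117 counts and its antisense partner Gm29261 none, at least 141.3-fold fewer. In Gm26848 and Dynlt1a the lincRNA had 131, 189 and 104 counts and the dynein light chain gene none. Dynlt1a has near-identical copies, so that its count is uncertain.

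Pairs at either extreme of overlap length differed widely in counts. Of the 10 pairs with the longest overlap, 4 had no count, among them Kcna6, a potassium channel gene, with Gm26673 over 2355 shared bases. Arhgef26 and 9330121J05Rik had 9 counts. The longest overlap, 2613 bases between Pcdhga10 and Gm26672 in the clustered protocadherins, had 46, 47 and 26 counts on Gm26672 and none on Pcdhga10. This pair is not clean, since Gm26672 also shares exonic bases with Pcdhga11, Pcdhgb7 and Pcdhga12. High counts were found in Sgo2a and Kctd18, which share 2455 bases. Kctd18 had 1741, 1533 and 1211 counts, while Sgo2a, which encodes shugoshin 2 that protects cohesin in meiosis, had 8, 1 and 18. Serinc4 had 1428, 1403 and 1079 counts against 40, 23 and 15 of Serf2, and Gm26668 had 1488, 1209 and 1018 against 52, 14 and 32 of Eftud2, a spliceosome GTPase gene. In these long overlaps the lower gene took 1.96% of the counts of Serf2 and Serinc4 and 2.57% of those of Gm26668 and Eftud2. Serf2 and Serinc4 are not a clean pair. Serinc4 also shares 1576 bases with Hypk on the other strand, which had 11 counts over the 3 libraries.

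At the short end, Pus10 and Pex13 share 2 bases and had 101, 73 and 66 against 4, 3 and 8 counts. Pus10 encodes a pseudouridine synthase and Pex13 a peroxisome import factor, and the log2 ratio was 4.06 ± 0.44 (edgeR adjusted p = 4.37e-05). The antisense RNA Gm14104 had 12, 20 and 17 counts and Crls1, the cardiolipin synthase gene with which it shares 2 bases, had 12, 6 and 5. Gm10640 and Gramd1a share 3 bases, with 232, 240 and 188 against 35, 10 and 18 counts. BC023719 and H2-T-ps share 1 base and had 183, 151 and 96 against 15, 6 and 7 counts, but both lie among near-identical histocompatibility genes, so that their counts are uncertain. Gm45016 had 9, 3 and 14 counts and 3110040N11Rik 5, 5 and 2, and these values overlapped between the genes.

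Of 69 genes listed for T helper cell regulators, cytokines and receptors, 5 were in head-to-head pairs, and in each the listed gene was lower than its partner in all 3 libraries. Beside Pim1 these were Cish, Lef1, Gfi1 and Ikzf4. Cish, a suppressor of cytokine signalling, had 64, 36 and 53 counts against 3612, 2989 and 2320 of Gm17040. Cish also shares 479 bases with Gm17041, which had 34718 counts over the 3 libraries, so that this pair is not clean. Lef1, a transcription factor of T cells, had 139, 81 and 88 counts against 1852, 1464 and 1348 of its antisense RNA Gm43352, with 1208 shared bases and a log2 ratio of 5.46 ± 0.24 for Gm43352 (edgeR adjusted p = 5.39e-07). Gfi1, a transcriptional repressor that acts in the growth of Th2 cells, was the most even of the 5. It had 99, 65 and 92 counts against 412, 358 and 331 of A430072P03Rik, or 18.9% of the pair, and a log2 ratio of 3.05 ± 0.24 for A430072P03Rik (edgeR adjusted p = 6.12e-06). Ikzf4, the Eos transcription factor, had 1, 1 and 0 counts against 15, 5 and 15 of Gm26876. The median count of the 5 pairs was 4972, against 496 over all 967 pairs with 30 or more counts. For scale, 777 of 1322 protein-coding genes in those pairs (58.8%) were lower than their partner in all 3 libraries and 449 (34.0%) higher. That base mixes partner classes, and each of the 5 genes faces a non-coding gene or, for Cish, a pseudogene. In pairs of a non-coding and a protein-coding gene, the protein-coding gene was lower in 356 of 467 (76.2%). In pairs of protein-coding genes only 1 gene can be lower. The counts of the lists below are to be read against these shares, and the lists differ in the class of partner. No list was tested.

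Of 30 genes listed as textbook head-to-head promoter genes, 12 were members, in 6 pairs of which 5 had 30 or more counts. Surf2 and Surf1, the latter an assembly factor of cytochrome oxidase, were close to even, with 352, 293 and 284 against 369, 337 and 236 counts. Their order was not the same in every library, while per exonic base Surf1 was higher by a log2 ratio of 0.96 ± 0.21 (edgeR adjusted p = 0.00282). This pair shares 137 bases and is not clean. Surf2 also shares 144 bases with Surf4 on the other strand, which had 744 counts over the 3 libraries. Hspe1 and Hspd1, which encode the partner subunits of the mitochondrial chaperonin, had 51, 29 and 43 against 279, 89 and 147 counts. Hspe1 was lower by a log2 ratio of -1.13 ± 0.27 (edgeR adjusted p = 0.00472). Paics and Ppat, both of purine synthesis, had 151, 54 and 101 against 81, 68 and 63 counts, and their values overlapped. The log2 ratio per exonic base was 0.93 ± 0.31 for Paics (edgeR adjusted p = 0.0216). Hars2 had 1227, 941 and 842 counts and Hars, the cytosolic histidyl-tRNA synthetase, had 34, 4 and 23. Col4a2 and Col4a1, collagen genes of basement membranes, had 4 counts in all on Col4a2 and none on Col4a1. The lower gene took 49.7% of the counts in Surf2 and Surf1, 40.9% in Paics and Ppat, 19.3% in Hspe1 and Hspd1 and 1.99% in Hars2 and Hars.

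DNA replication and repair genes were the lower gene in all 3 libraries in 6 of 7 pairs, against 58.8% of all protein-coding genes in such pairs. Mcm7, a subunit of the replicative helicase, had 147, 114 and 113 counts against 1448, 1075 and 1088 of Ap4m1. This pair shares 321 bases and is not clean. Ap4m1 also shares 1185 bases with Taf6, which had 1718 counts over the 3 libraries, and Mcm7 also overlaps Cops6. Mre11a, a nuclease of double-strand break repair, had 21, 7 and 13 against 334, 360 and 268 of Ankrd49. Xrcc4, a factor of end joining, had 1 count in each library against 95, 63 and 66 of Tmem167. The exception was Lig1, the replicative DNA ligase, with 107, 52 and 62 counts against 21, 13 and 19 of Zswim9. In Lig1 and Zswim9 the values of the genes did not overlap, and the log2 ratio was 3.49 ± 0.32 (edgeR adjusted p = 1.56e-05).

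Of 201 genes listed for the mitochondrial ribosome and respiratory chain, 30 were in 29 pairs, all with 30 or more counts. The listed gene was lower in all 3 libraries in 19 of the 27 pairs with a single listed gene and higher in 8, against 58.8% and 34.0% of all protein-coding genes. Cox4i1, a cytochrome oxidase subunit, had 38, 10 and 31 counts against 2697, 2445 and 1987 of Emc8. Mrpl18 had 24, 15 and 16 against 2243, 1701 and 1437 of Tcp1, a chaperonin subunit gene that also overlaps Acat3. Ndufb5, of respiratory complex I, had 11, 4 and 5 against 2622, 2392 and 2019 of Mrpl47, a pair in which both genes are listed. Atp5j and Gabpa, a transcription factor gene, were even, with 574, 413 and 368 against 1116, 744 and 647 counts and a log2 ratio per exonic base of -0.01 ± 0.19 for Atp5j (edgeR adjusted p = 0.95).

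The list for cytosolic translation was drawn up by symbol. It thus also takes in the mitochondrial synthetase gene Hars2, and Eef2kmt, which is no elongation factor itself. Of its 16 genes in pairs with a single listed gene, 2 were lower than their partner in all 3 libraries and 10 higher, against 58.8% and 34.0% of all protein-coding genes. Of the lower 2, Rpl15, of the large ribosomal subunit, had 111, 88 and 68 counts against 3326, 2588 and 2040 of Nkiras1. Rps25, of the small subunit, had 1322, 841 and 725 counts against 93, 75 and 48 of Trappc4, and also overlaps Ccdc84. Rpl18 had 423, 310 and 274 against 89, 115 and 69 of the sphingosine kinase gene Sphk2, and Eif2b4 had 472, 346 and 273 against 240, 214 and 198 of Snx17. Of the 18 members of this list, 17 lay above 1 TPM (counts scaled to exonic length and library total), against 51.1% of the protein-coding members tested. Whether this list differs from the mitochondrial list was not tested.

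RNA processing genes were lower in all 3 libraries in 7 of 11 pairs and higher in 4, and zinc finger genes lower in 13 of 19 and higher in 4, against the same shares of all protein-coding genes. Srsf1, a splicing factor, had 126, 54 and 76 counts against 2627, 1679 and 1378 of its antisense RNA Gm11508, a clean pair with 98 shared bases and a log2 ratio of 8.19 ± 0.30 for Gm11508 (edgeR adjusted p = 4.91e-07). Snrpf, of the spliceosome core, had 14, 8 and 12 counts against 2909, 3204 and 2588 of 4933408J17Rik. Sf3a2 went the other way, with 883, 585 and 547 counts against 71, 35 and 28 of Plekhj1. Zfp651 had 0, 0 and 3 counts against 2232, 1914 and 1698 of E530011L22Rik, which also overlaps Nktr. Zfp652 had 661, 714 and 448 counts against 0, 1 and 0 of Zfp652os. Zfp335 and Zfp335os were even per exonic base, with 501, 372 and 306 against 144, 100 and 93 counts and a log2 ratio of 0.09 ± 0.20 for Zfp335os (edgeR adjusted p = 0.67).

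As genes, the members carried more counts than their number would give, but fewer per gene than all opposite-strand genes. With 5.66% of the genes and 9.25% of their exonic bases, they took 24.0% ± 0.685 of all counts (SD, n = 3). The 3 libraries gave 24.3%, 24.4% and 23.2%, with Wilson 95% intervals of 24.3 to 24.4, 24.3 to 24.4 and 23.1 to 23.2. Replicate 2 gave 22.7% (21.5 to 23.9). All 8001 autosomal genes with opposite-strand exons, which include the 2866 members, took 89.4% ± 1.94. Against 1 TPM, limma placed 1269 of 2193 members with a count (57.9%) above and 198 (9.03%) below, while 35.1% of all autosomal genes tested were above and 16.0% below. With any of the 3 libraries left out, 0 to 3 members were called below, and with all 4 libraries 519 were above and 321 below. The other 673 members had no count in the 3 libraries. The share above 1 TPM was 51.1% for protein-coding members and 71.4% for non-coding members, against 32.0% and 51.7% of all autosomal genes of those classes. Among genes without opposite-strand exons it was 21.9%, or 2444 of 11168. Of the 17184 autosomal genes tested, 6035 were above 1 TPM, these 2444 and the 1269 members among them. The rest of the 6035 were opposite-strand genes of other layouts, so the high share was not particular to head-to-head pairs. Members were longer than autosomal genes as a whole, with a median exonic length of 3002.5 against 1402 bases, and TPM divides by the whole exonic length even where few bases are shared, as in Fam57b.

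Of the 967 pairs, 91 changed their call or direction in the larger-share comparison when a library was left out. Of these, 51 were called with all 3 libraries, and none of the 51 changed direction. The 5 most abundant of the 91 were Atp5j and Gabpa, given above, and the pairs that follow. Tmem116 and Erp29, a chaperone gene of the endoplasmic reticulum, had 1334, 1046 and 887 against 2667, 2091 and 1720 counts, a log2 ratio of 0.29 ± 0.19 for Tmem116 (edgeR adjusted p = 0.18). Ilk, the integrin-linked kinase, and Rrp8 had 688, 592 and 525 against 546, 412 and 384 counts, a log2 ratio of 0.81 ± 0.19 for Ilk (edgeR adjusted p = 0.00451). Abi3 had 454, 489 and 386 counts against 97, 161 and 78 of Gngt2, a log2 ratio of -0.89 ± 0.23 for Gngt2 (edgeR adjusted p = 0.00726). Acss2, the acetate-activating enzyme, had 404, 357 and 283 against 135, 146 and 77 of Ggt7, a log2 ratio of 0.06 ± 0.22 for Ggt7 (edgeR adjusted p = 0.794).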

How the data were processed

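The authors deposited raw counts of fragments per gene. Per the file headers these come from featureCounts 1.4.6-p4, run on alignments by STAR (version not given in the sources used here) to mm10 with GENCODE vM13 exons. The headers also show that both mates had to map and that read 1 had to lie on the gene's strand (setting 1). GENCODE vM21 gave symbols and biotypes by unversioned identifier, and 6 of the 2866 members had none there. Replicates 1, 3 and 4 had 1713199 to 2388255 counts and replicate 2 had 5016.

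Pairs, CPM and TPM were computed from the deposited coordinates and counts with Python 3.11.15, numpy 2.4.6, pandas 2.3.3 and scipy 1.17.1. Within-pair ratios were fitted in R 4.3.3 by edgeR 4.0.16, using its quasi-likelihood test. The features were the 2992 autosomal opposite-strand pairs with 30 or more counts over replicates 1, 3 and 4 (1445 for non-coding against protein-coding), with library as a block and library total times exonic length as offset. Benjamini-Hochberg adjustment over all pairs was used at 0.05. The standard error (SE) comes from the size of the log2 ratio and its F value. For levels, limma 3.58.1 tested log2(TPM + 0.1) against the value at 1 TPM. DESeq2 1.42.0 was an alternative. Pairs that share a gene are not independent. The detection floor is 3 counts, and intervals and floors cover counting error only, since fragments had no molecular identifiers.

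Members, gene lists, tests and settings were chosen with earlier results of these data known. The pairs named were the 10 with the most counts, the 10 longest, the 5 shortest with 30 or more counts, and the 10 called with the largest ratio in each comparison. They also included the 5 largest and 5 smallest ratios among called clean pairs, up to 6 pairs per list, and up to 5 that changed without a library. Pairs in the last categories with a further overlapping gene are mostly given as counts only. The clean pairs with 20 to 30 shared bases and the genes with a printed promoter were chosen after their values were seen. Results for a few genes that these rules name are not reported here.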

Additional observations from a re-analysis of the deposited data

Results flagged for a closer look

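In replicate 2, 1138 counts fell on genes of head-to-head pairs. They were not used in the tests, and 416 of the 1457 pairs had a count there and 43 had counts on both genes. Of 32 values examined over the 4 libraries, 4 had a library far from the others, and in each it was replicate 2. Chance flags about 1 in 20 such groups, but these values are not independent, since Fam57b enters alone and with Aldoa, and a single count in replicate 2 is worth 199.362 CPM. Fam57b and Aldoa together had 1993.62 CPM there against 6072 to 6429 CPM in the others, and Fam57b alone had 1794.26 CPM. Arhgdib and Pim1 each had that single count, below the 3-count floor of 598 CPM in that library.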

How the results depend on the processing

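With 300 or more counts, 585 of 600 pairs were called in the larger-share comparison (387 higher) and 268 of 274 in the non-coding comparison (243 higher, 25 lower). Refitted on clean pairs alone, 432 of 482 (316 higher, 116 lower) and 212 of 235 (195 higher, 17 lower) were called, both having fewer pairs by construction. Without the length offset, 83 non-coding genes were lower in place of 48. Leaving out each library in turn gave 819 to 870 and 400 to 416 called pairs. DESeq2, TMM library sizes, all 4 libraries and a filter of 1 count kept these counts of called pairs within 1.5 times. The filter of 1 count added pairs with few counts, and the share called was lower. It was 931 of 1229 (75.8%) in place of 91.1%, and 463 of 625 (74.1%) in place of 91.9%. Non-coding genes were called higher in 65.8% there.

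Members above 1 TPM were 519 with all 4 libraries and 636 in clean pairs. Members below 1 TPM were 314 with log2(TPM + 1), 747 with no filter, 321 with all 4 libraries, 127 in clean pairs, and 0 to 3 with any of replicates 1, 3 and 4 left out. Spearman's coefficient for shared bases and counts was 0.253 with 30 or more counts, 0.146 in clean pairs, 0.156 with a limit of 50% and -0.0816 with the distance between starts.

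Of 1150 alternative values of 125 named ratios, 1129 kept direction and call, 13 lost the call, 2 gained it and 6 changed direction. Without the length offset Zfp335os gave -1.80, Tmem116 -0.98 and Ggt7 -1.58 (log2). With a library left out, Atp5j gave -0.043 to 0.030 (above 0 without replicate 1) and Ggt7 -0.070 to 0.20 (below 0 without replicate 3). All were near 0 and not called before. The cause was not tested. No paired analysis was possible because all samples form 1 group, so that replicate numbers pair no groups, while both genes of a pair were always compared within a library.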
